A study of Mus musculus with 9 samples.

Results

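Transcript levels of 10 genes that run the spindle assembly checkpoint or regulate the anaphase-promoting complex (APC/C) were followed in growing mouse oocytes with XX, XO or XY sex chromosomes. The genes were chosen by name (Ttk, Bub1, Bub3, Bub1b, Mad1l1, Mad2l1, Cdc20, Fzr1, Fbxo5 and Fbxo43), and all 10 had a row among the 28052 genes of the deposited matrices. The study compared the transcriptomes of oocytes of the 3 genotypes before growth was complete. Each of the 9 libraries was made from a pool of 30 oocytes, 10 of 50–55 µm and 20 of 55–60 µm in diameter, from females of 18 days post partum, and the labels call the 3 libraries of a genotype biological triplicates. The labels give C57BL/6 (B6) as the strain of all 9 libraries. XY females and their XX littermates were the offspring of B6 females and B6.YTIR males, which carry a Y chromosome of Mus musculus domesticus on the B6 background. XO females were the offspring of B6 females and carriers of Paf, an X-linked mutation brought to B6 by backcrossing from C3H/HeSnJ, so that XO oocytes differ from the others in breeding as well as in sex chromosomes and these cannot be told apart. PolyA RNA was converted by Smart-seq3, in which a unique molecular identifier (UMI) at the 5′ end of each transcript lets copies made by PCR be counted once.

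The spindle assembly checkpoint holds a dividing cell in metaphase until every kinetochore is attached to microtubules. Unattached kinetochores recruit the kinases TTK and BUB1 and the MAD1L1 and MAD2L1 proteins, and the resulting complex of MAD2L1, BUB1B, BUB3 and CDC20 blocks the APC/C, the ubiquitin ligase that marks securin and cyclin B for destruction. CDC20 and FZR1 are the activators of the APC/C, and FBXO5 and FBXO43 are its inhibitors. Oocytes in growth are arrested in prophase of the first meiotic division and do not divide, but they store transcripts for the divisions that follow. FZR1 is known to keep cyclin B low during that arrest, and FBXO43 is known to hold the egg in metaphase of the second division.

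None of the 10 genes is on a sex chromosome. This covers the 10 genes only, as positions of the other pathway genes named below are not given here. By the deposited coordinates, which were the same in Gencode vM21 (GRCm38), Bub1b lay at chr2:118598211-118641591 and Bub1 at chr2:127801122-127831865. Cdc20 lay at chr4:118432901-118437352, Mad1l1 at chr5:140008689-140321552, Mad2l1 at chr6:66535390-66547220, Bub3 at chr7:131560222-131571895 and Ttk at chr9:83834689-83872389. Fbxo5 lay at chr10:5799160-5805600, Fzr1 at chr10:81366222-81378516 and Fbxo43 at chr15:36150060-36164884. Bub1b, Mad2l1, Bub3 and Ttk are read from the plus strand and the other genes from the minus strand. All 10 are annotated as protein-coding genes. The 3′ end of Cdc20 overlaps Elovl1, Fzr1 overlaps Mfsd12 and Bub3 lies within the span of Fgfr2, each on the opposite strand, and the reads were aligned as stranded. Mad1l1 overlaps the short gene models Gm43702 and Gm43195 on its own strand, so its few UMIs are uncertain.

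Promoters of 9 of the 10 genes were listed by RefSeq (GRCm38.p6), from 250 bases before to 50 bases after the transcription start, and Fbxo43 was not listed. Many genes of late cell cycle carry CCAAT boxes and a CHR (cell cycle genes homology region) near their start, so both were searched, the first as CCAAT and the second as TTTGAA or as TTCGAA, each on both strands. CCAAT letters were found in 7 of 9 genes (Cdc20, Fzr1, Fbxo5, Bub1, Bub1b, Bub3 and Ttk) and in 37.4% of all 32851 promoters of the same length. CHR letters were found in 6 of 9 genes, the same ones without Fzr1, and in 19.2% of all promoters. A match is a run of letters and not evidence of binding. The 120 bases upstream of the start are shown, 5′ to 3′ on the strand of the gene and with matches in capitals, for the 3 genes whose levels differed most by fold between XX and XO oocytes or had the smallest p, namely Cdc20 (chr4:118437344-118437463), Bub1b (chr2:118598091-118598210) and Mad2l1 (chr6:66535101-66535220).
Cdc20: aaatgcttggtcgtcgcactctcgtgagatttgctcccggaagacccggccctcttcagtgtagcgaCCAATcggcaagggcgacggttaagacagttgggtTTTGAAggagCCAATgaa
Bub1b: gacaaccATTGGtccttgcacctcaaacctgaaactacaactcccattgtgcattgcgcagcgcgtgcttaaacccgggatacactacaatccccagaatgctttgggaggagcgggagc
Mad2l1: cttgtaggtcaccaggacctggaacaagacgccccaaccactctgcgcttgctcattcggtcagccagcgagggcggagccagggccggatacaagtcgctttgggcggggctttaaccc

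Cdc20 had both kinds of letters in this stretch, Bub1b had the CCAAT letters on the other strand, and Mad2l1 had neither here nor in the rest of its listed window. Short windows around the CHR letters, which are in capitals, are shown for the other genes that had them and for Bub1b, so that the 2 genes with the opposite library pattern (Fbxo5 and Bub1, described further on) can be set beside the rest. They lie at chr9:83834684-83834713 (Ttk), chr7:131560315-131560344 (Bub3), chr2:118598011-118598040 and chr2:118598239-118598260 (Bub1b, upstream and downstream of the start), chr10:5805445-5805474 (Fbxo5) and chr2:127831828-127831857 (Bub1).
Ttk: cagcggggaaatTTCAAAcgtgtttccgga
Bub3: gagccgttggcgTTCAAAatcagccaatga
Bub1b upstream: tctctccctgggTTCGAAggcttgtcttag
Bub1b downstream: agagacgttaaaTTTGAAactt
Fbxo5: ttgggcaccaaaTTCAAAgattttaaaagt
Bub1: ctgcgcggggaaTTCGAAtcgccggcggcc

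CHR letters thus stood within the listed window in Ttk and Bub1b as well as in Fbxo5 and Bub1. A relation of the letters to expression was not tested.

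Gene UMIs per library ranged from 2130145 to 3157338, spread over 18334 to 21044 detected genes. Levels are given as the authors' normalized CPM, the UMI count times 1 constant per library that the authors took from the gene total and the ERCC spike-in RNAs. A UMI marks 1 transcript end, and these levels are not divided by gene length. A gene with 0 UMIs in a library can have had up to 3, the upper 95% limit of a count of 0, which is between 0.906 and 1.69 normalized CPM and covers counting error only. The choice of constant moved all genes at once, the median log2 fold change over 10993 tested genes being -0.46 for XX against XO, -0.19 for XX against XY and -0.30 for XY against XO. With TMM factors taken from the genes themselves it was -0.11, -0.01 and -0.13, and results are therefore given with both. The 11 oocyte markers (zona pellucida genes, Gdf9, Bmp15 and others) summed to between 18862 and 38807 normalized CPM. Of 12 granulosa cell markers 9 had a row, summing to between 48.0 and 92.1, and Inha, Fst, Wt1 and Amhr2 were at 0 in at least 6 libraries. Theca and stroma markers summed to at most 4.99 over the 5 with a row. The library XO1 stood apart from XO2 and XO3, with a sum of oocyte markers of 18862 against 32619 and 38807 normalized CPM. The fitted values of the tested genes against XO are given with and without XO1. XY1 was low too, at 20089 beside 27104 and 26677 in XY2 and XY3. The study found XX1, XO2 and XY1 less similar to their replicates and did not name XO1.

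In fits without a block, Mad2l1 and Cdc20 were higher in XO than in XX oocytes with either scaling (spike-in or TMM factors). Bub1b and Fbxo43 were higher with the spike-in but not the TMM factors. Against XY oocytes, Mad2l1 was higher in XO with either scaling and Fbxo43 with the spike-in factors. With a block on library number, Mad2l1, Cdc20, Bub1b and Fbxo43 were all higher in XO than in XY oocytes with either scaling. The pairing by number was read from these same data, so the calls that the block added are no separate support. For XX against XY no gene of the group was called in these fits. The calls against XO did not hold with library sizes proportional to spike-in totals, where no gene of the group was called. For XX against XO the log2 fold change was then -1.01 for Mad2l1 and -2.19 for Cdc20 (adjusted p = 0.918 for each, edgeR). Those of Fbxo5, Bub1, Bub3 and Ttk, not called with spike-in factors either, changed sign. The calls used the threshold of the study, an unadjusted p of 0.05 by edgeR's quasi-likelihood F test (two-sided, all 9 libraries in 1 fit). The lowest Benjamini-Hochberg adjusted p with the filter on low counts, spike-in factors and no block was 0.203, for Mad2l1. Over all tested genes, 0% had an adjusted p below 0.05 for XX against XO and 0.0364% for XY against XO. Leaving out XO1 raised these shares to 24.3% and 12.8%. The adjusted p-values without XO1 given below thus stand beside a change over all genes. Without the filter, edgeR gave an adjusted p for XX against XO of 3.85e-05 for Bub1b, 8.62e-05 for Cdc20 and 0.00215 for Mad2l1. The fold changes hardly moved and the counts of these genes were the same, so these values reflect another fit and not added evidence. The SE went from 1.03 to 0.48 for Bub1b, from 1.27 to 0.66 for Cdc20 and from 0.42 to 0.47 for Mad2l1. The lower adjusted p of Mad2l1 thus did not come with a smaller SE. XX and XO libraries overlapped for Bub1b and Cdc20. Of the 10 genes, 8 passed the filter on low counts, and Fzr1 and Mad1l1 did not. Cdc20 passed it only through XO2, XO3 and XY3, so that its call against XO rests on libraries that also let it in.

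**Figure D1:**
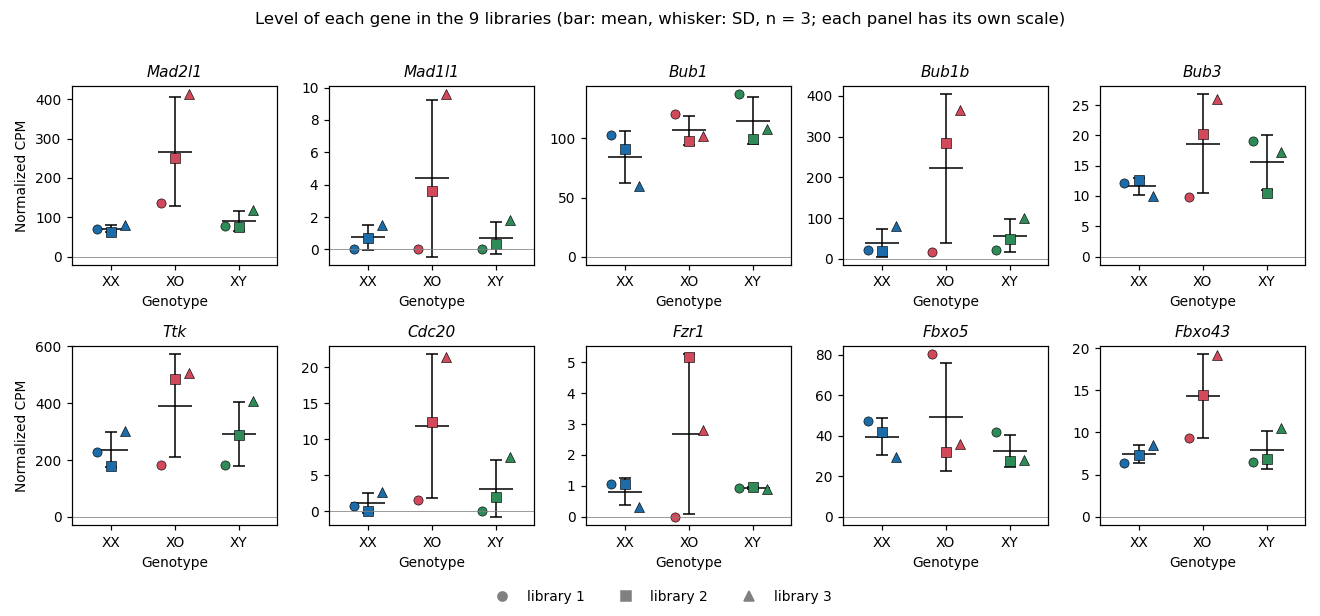
Normalized CPM (y axis, linear, own scale in each panel) of the 10 genes in XX, XO and XY oocytes, with 1 point per library, the mean as a bar and the SD as a whisker (n = 3). Mad2l1 is the gene whose 3 XO points, between 137 and 413, all lie above every XX and XY point, and XO1 (circle) lies far below the other XO points for Bub1b, Cdc20 and Ttk.

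Mad2l1 encodes the protein that closes around CDC20 to inhibit it. Its level was 70.2, 61.6 and 80.4 normalized CPM in XX1, XX2 and XX3, 137, 250 and 413 in XO1, XO2 and XO3, and 76.7, 74.2 and 120 in XY1, XY2 and XY3. The lowest XO library was above the highest XX and the highest XY library, and XX and XY libraries overlapped. The mean of XX libraries was 70.7 ± 9.42, that of XO libraries 267 ± 139 and that of XY libraries 90.1 ± 25.5 (SD, n = 3). XO oocytes had 3.77-fold the level of XX oocytes (log2 fold change of XX against XO -1.91 ± 0.42 SE) and 2.96-fold the level of XY oocytes (XY against XO -1.56 ± 0.42). With TMM factors the folds were 2.81 and 2.52, and all of these passed the threshold. Mad2l1 stayed past the threshold in both comparisons in all 9 fits that left out 1 library. Its adjusted p was 0.203 against XX and 0.485 against XY by edgeR, but 0.00634 and 0.0385 by DESeq2, and 0.00261 and 0.00814 by edgeR without XO1, where the folds were 4.68 and 3.67. In pools of oocytes, more cells that express a gene and more transcripts per cell cannot be told apart.

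Mad1l1, which brings MAD2L1 to unattached kinetochores, was close to the limit of detection. It had 0, 2 and 5 UMIs in the XX libraries, 0, 7 and 17 in the XO libraries and 0, 1 and 6 in the XY libraries, and the highest level was 9.60 normalized CPM in XO3. One library of each genotype had no UMI, so that the genotypes overlapped, and the gene was not tested. When the filter was left out, Mad1l1 had a log2 fold change of -2.43 ± 0.83 for XX against XO (adjusted p = 0.0594) and of -2.40 ± 0.84 for XY against XO (adjusted p = 0.109) by edgeR, both past the unadjusted threshold.

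Bub1b encodes BUBR1, the part of the inhibitory complex that sits on the APC/C as a pseudosubstrate. Its level was 20.3, 19.3 and 79.2 normalized CPM in XX1 to XX3, 16.1, 284 and 365 in XO1 to XO3, and 20.5, 49.5 and 101 in XY1 to XY3. XO1 was the lowest of all 9 libraries while XO2 and XO3 were the highest, so the genotypes overlapped. The highest library of a genotype exceeded the lowest 22.8-fold in XO, 4.11-fold in XX and 4.92-fold in XY oocytes, the widest range of the 10 genes in XO among those with UMIs in every library. The fitted XO level was 5.59-fold that of XX (log2 -2.48 ± 1.03, called, adjusted p = 0.257 by edgeR). It was 3.89-fold that of XY (log2 -1.96 ± 1.01), which missed the threshold. A fit that blocked all 9 libraries on their number gave 3.20-fold, which passed it (adjusted p = 0.262, edgeR). With TMM factors the fold against XX was 4.04 and the call was lost. Leaving out XO1 raised the folds to 8.16 against XX and 5.68 against XY (adjusted p = 0.0104 and 0.0343, edgeR), and leaving out XX1, XX2, XO2, XO3 or XY2 in turn ended the call against XX.

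Bub3, the partner that carries BUB1 and BUB1B to the kinetochore, was at 12.1, 12.6 and 10.1 normalized CPM in the XX libraries, 9.84, 20.2 and 26.0 in the XO libraries and 19.1, 10.4 and 17.2 in the XY libraries. XO1 was the lowest and XO3 the highest library, and all genotypes overlapped. The log2 fold change was -0.68 ± 0.40 for XX against XO, -0.42 ± 0.40 for XX against XY and -0.26 ± 0.40 for XY against XO, none of which passed the threshold. Without XO1 the first of these passed it (log2 -0.99 ± 0.34, adjusted p = 0.0541, edgeR), and the value for XY against XO was -0.57 ± 0.34.

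Bub1, the checkpoint kinase that binds KNL1 through BUB3, varied least in XO oocytes. Its level was 103, 90.7 and 60.0 normalized CPM in the XX, 121, 97.7 and 102 in the XO and 138, 99.3 and 108 in the XY libraries. The highest 2 libraries were XY1 and XO1, and XX3 was the lowest. All 3 genotypes overlapped. No comparison passed the threshold by edgeR, and the log2 fold change of XX against XO was -0.34 ± 0.29 with spike-in and 0.0018 ± 0.32 with TMM factors. Without XO1 it was -0.24 ± 0.29, and that of XY against XO moved from 0.11 ± 0.29 to 0.20 ± 0.30. Limma voom with a surrogate variable called Bub1 lower in XX than in XO (log2 -0.42, adjusted p = 0.0853), beside 38.4% of all tested genes called in either direction.

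Ttk, the kinase that starts the checkpoint signal, had the most UMIs of the 10 genes, 6959 over the 9 libraries. Its level was 227, 180 and 302 normalized CPM in the XX, 182, 485 and 506 in the XO and 182, 288 and 408 in the XY libraries. XO2 and XO3 were the highest libraries and XO1 was among the lowest, and the genotypes overlapped. No comparison passed the threshold by edgeR, with log2 fold changes of -0.73 ± 0.46 for XX against XO, -0.31 ± 0.46 for XX against XY and -0.42 ± 0.46 for XY against XO. Without XO1 the first passed it, and XO oocytes had 2.10-fold the level of XX oocytes (adjusted p = 0.0525, edgeR), while XY against XO was -0.76 ± 0.36 and was not called.

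Cdc20, the activator that the checkpoint restrains, was low. It had 2, 0 and 9 UMIs in the XX, 3, 24 and 38 in the XO and 0, 6 and 25 in the XY libraries, corresponding to 0.712, 0 and 2.74, 1.55, 12.4 and 21.5, and 0, 1.95 and 7.55 normalized CPM. XO2, XO3 and XY3 were the highest, and these 3 libraries alone carried the gene past the filter on low counts. XO1 was below XX3, so that XX and XO libraries overlapped. The fitted XO level was 9.48-fold that of XX (log2 -3.25 ± 1.27, adjusted p = 0.242 by edgeR) with spike-in factors and 6.99-fold with TMM factors, both called. Without XO1 it was 13.5-fold (adjusted p = 0.0199, edgeR), and the call ended when XX1, XX2, XO2 or XO3 was left out. Against XY the log2 fold change was -1.80 ± 1.14, which was not called, and -2.05 ± 0.67 with the number as a block, which was (adjusted p = 0.24, edgeR). Without XO1 it was -2.29 ± 0.88, also called.

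Fzr1, the other activator, had between 0 and 10 UMIs in a library and was not tested. Its level was 1.07, 1.05 and 0.305 normalized CPM in the XX, 0, 5.17 and 2.82 in the XO and 0.930, 0.977 and 0.906 in the XY libraries. The XY libraries lay close together, and XO2 and XO3 were above all others while XO1 had no UMI. When the filter was left out, the log2 fold change of XX against XO was -1.69 ± 0.89 (adjusted p = 0.382, edgeR), which missed the threshold.

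Fbxo5 encodes EMI1, an APC/C inhibitor, and was at 47.4, 41.7 and 29.6 normalized CPM in the XX, 80.3, 32.1 and 36.1 in the XO and 41.8, 27.7 and 28.1 in the XY libraries. XO1 was the highest library, the reverse of Bub1b, and the genotypes overlapped. Its log2 fold changes, none of them called by edgeR, were -0.32 ± 0.40 for XX against XO, 0.28 ± 0.40 for XX against XY and -0.61 ± 0.40 for XY against XO. Without XO1 the value for XX against XO changed sign to 0.21 ± 0.31, and that for XY against XO shrank to -0.074 ± 0.31. Limma voom with a surrogate variable called Fbxo5 lower in XY than in XO (log2 -0.69, adjusted p = 0.025), beside 28.1% of all tested genes called in either direction.

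Fbxo43, which encodes EMI2, was at 6.41, 7.35 and 8.53 normalized CPM in the XX, 9.32, 14.5 and 19.2 in the XO and 6.51, 6.84 and 10.6 in the XY libraries. Every XO library was above every XX library, but XY3 was above XO1. XO oocytes had 1.92-fold the level of XX (log2 -0.94 ± 0.37) and 1.78-fold that of XY oocytes (log2 -0.83 ± 0.37) with spike-in factors, both called (adjusted p = 0.244 and 0.501, edgeR). With TMM factors these were 1.45-fold and 1.55-fold, and both calls were lost, but the block on number restored the call against XY with TMM factors (1.55-fold, adjusted p = 0.306, edgeR). Without XO1 they were 2.25-fold and 2.08-fold (adjusted p = 0.035 and 0.071, edgeR). The call against XX ended when XX1, XX2, XO2 or XO3 was left out, and the call against XY in 7 of the 9 fits that left out 1 library.

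Across the group, 4 of 8 tested genes were called for XX against XO, all lower in XX, where 18.1% of all tested genes were called and 16.7% were lower in XX. With TMM factors 2 of 8 were called (12.2% of all tested genes), and without XO1 6 of 8 (36.4%). Cdc20, which passed the filter only through XO2, XO3 and XY3, is among the called genes in each of these counts and enters the medians. The median log2 fold change of the 8 genes was -0.83 beside -0.46 for all tested genes, and -0.43 beside -0.11 with TMM factors. Libraries of XX and XO did not overlap for 2 of the 8 (Mad2l1 and Fbxo43), beside 13.6% of all tested genes that were lower in every XX library. For XY against XO, 2 of 8 were called, both lower in XY (9.93% of all tested genes, 8.24% lower in XY), 1 with TMM factors (9.01%), 4 without XO1 (31.6%) and 4 with the block on number (16.6%, or 15.9% with TMM factors as well). Libraries of XY and XO did not overlap for 1 of the 8, Mad2l1, beside 6.34% of all tested genes that were lower in every XY library. The median of the 8 genes was -0.72 beside -0.30 for all tested genes. For XX against XY, 0 of 8 were called by edgeR at an unadjusted p below 0.05 (5.8% of all tested genes) or with TMM factors (5.14%), and 0 of 8 by DESeq2 (5.24%) or without XO1 (11.2%). Limma voom with a surrogate variable called 3 of 8 (Bub1, Bub1b and Ttk, all lower in XX), beside 23.5% of all tested genes, and edgeR without the filter called Cdc20. XX and XY oocytes were each compared with the same 3 XO libraries, so that these comparisons are not independent. The study, by limma with surrogate variables, reported many autosomal genes as lower in XO than in XX and XY oocytes. Here the direction was the reverse, with 1832 of all tested genes called lower and 154 higher in XX than in XO oocytes by edgeR. Limma voom with a surrogate variable gave 3598 lower and 624 higher. The cause of this difference from the study was not tested.

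**Figure D2:**
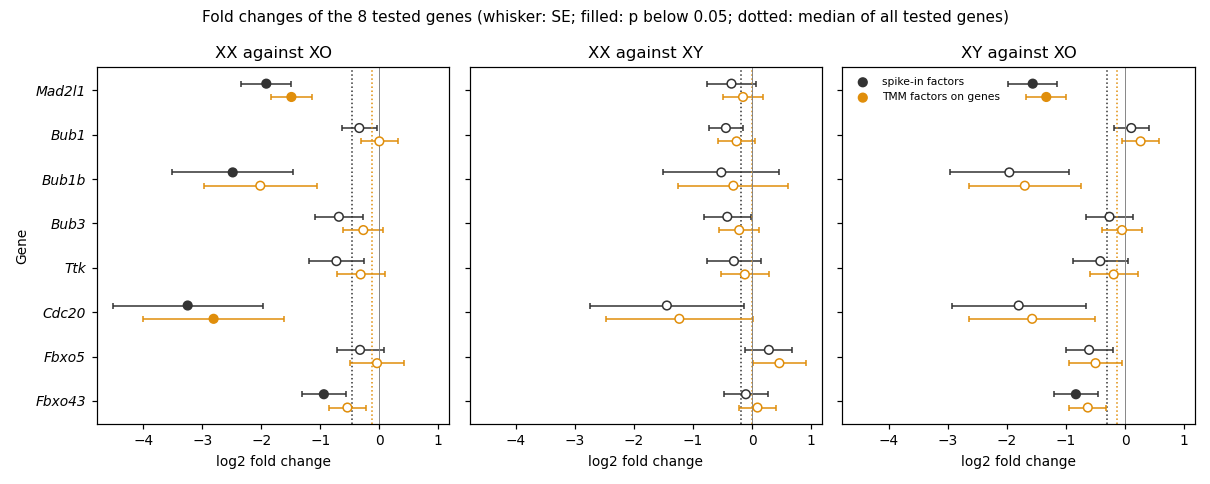
Log2 fold change (x axis, the same scale in each panel) of the 8 tested genes for the 3 comparisons, with spike-in factors (black) and TMM factors on genes (orange). Whiskers are SE, filled points have p below 0.05 and dotted lines are medians of all 10993 tested genes, and Mad2l1 is filled with both factors against XO while no point is filled for XX against XY.

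Several of these genes also differed between libraries of the same genotype. Cdc20, Mad2l1, Ttk, Bub1b and Fbxo43, 5 of the 8 tested genes, were higher in XX3 than in XX1, in XO3 than in XO1 and in XY3 than in XY1. This held for 33.5% of all tested genes. Fbxo5 and Bub1 were lower in all 3 of these pairs, as were 30.1% of all tested genes. With TMM factors the same 5 and 2 genes were named, beside 33.2% and 35.1% of all tested genes. The deviation from the mean of 9 libraries on the scale of log2(TMM-scaled CPM + 1) was -1.70 for XO1, 2.11 for XO2 and 2.29 for XO3 in Bub1b, and 1.10, -0.45 and -0.46 in Fbxo5. The oocyte markers Zp1, Zp3, Nobox and Dppa3 were low in XO1 and XY1 and high in XO2 and XO3 as Bub1b was. Nobox had 56.4, 522 and 1138 normalized CPM in XO1, XO2 and XO3. The named genes are a selection from the 11 oocyte markers. The sum of all 11 was lowest in XO1 among XO and in XY1 among XY libraries, as Bub1b was. Among XX libraries the sum hardly moved, at 28464, 27449 and 28942 in XX1, XX2 and XX3. Bub1b ranged there from 19.3 to 79.2. From XY2 to XY3 the sum fell from 27104 to 26677 while Bub1b rose. Pecam1, one of 2 endothelial and blood markers with a row, had 14.5, 109 and 132 in XO1, XO2 and XO3. The summed markers of dividing cells, mostly Mki67, were highest in XO1 (447) and XY1 (353), which were also the highest libraries for Bub1. The part of these differences in the results was not tested.

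**Figure D3:**
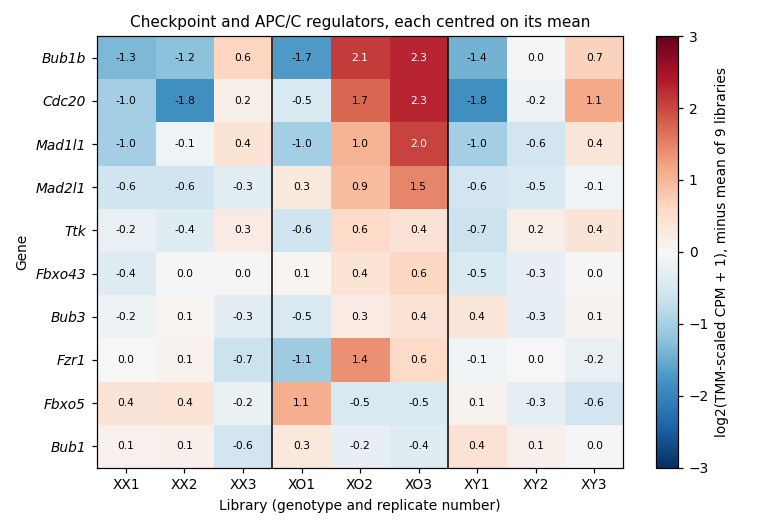
Log2(TMM-scaled CPM + 1) of the 10 genes minus the mean of the 9 libraries (colour and printed value), by library. All genes but Fbxo5 and Bub1 are above their means in XO2 and XO3, Bub1b, Cdc20, Mad1l1, Mad2l1 and Ttk among them. Fbxo5 and Bub1 are above theirs in XO1 and XY1, but also in XX1 and XX2, and Bub1 in XY2 as well.

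The genes most like each of the group over the 9 libraries, by the Pearson coefficient of log2(TMM-scaled CPM + 1) among 7270 tested genes whose mean reached 10 normalized CPM, were outside the group. They were Ddx47, D6Wsu163e and Arel1 for Bub1b (r = 0.997, 0.996 and 0.994), R3hdml, Eif2s2 and Slk for Mad2l1 (r = 0.984, 0.982 and 0.979) and Dync2h1, Rnaset2a and Gm23634 for Ttk (r = 0.993, 0.988 and 0.986). Cpeb4, Lepr and Mfap1b were most like Fbxo5 (r = 0.993, 0.989 and 0.987), and Nbea, Rab20 and Gpat3 most like Bub1 (r = 0.974, 0.971 and 0.963). For Cdc20 they were AC137842.1, Ssh2 and Maip1 (r = 0.985, 0.985 and 0.983), for Fbxo43 Camk2g, Polr2c and Fam98b (r = 0.971, 0.968 and 0.968) and for Bub3 Usp30, Katnal1 and Cacna2d3 (r = 0.958, 0.890 and 0.885). Within the group, the closest gene to Cdc20, to Mad1l1 and to Ttk was Bub1b (r = 0.924, 0.930 and 0.936), and the closest to Fbxo5 was Bub1 (r = 0.602). The 9 points share the library pattern described above and the coefficients are descriptions only.

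A ratio of 2 genes in the same library does not depend on the scaling. Of 6 ratios planned, only Bub1b to Bub3 had UMIs of both genes in every library, and 3 ratios to Bub1 were added after the data had been seen. The ratio of Mad2l1 to Bub1 UMIs was 0.682, 0.680 and 1.34 in the XX, 1.13, 2.56 and 4.04 in the XO and 0.557, 0.748 and 1.10 in the XY libraries. XO and XY libraries did not overlap in this ratio, whereas XX3 was above XO1. The mean log2 ratio was -0.23 ± 0.56 for XX, 1.18 ± 0.93 for XO and -0.37 ± 0.49 for XY libraries (SD, n = 3). The difference of XY and XO was -1.56 (p = 0.1, two-sided exact permutation test), and 3 against 3 libraries can give no smaller p. The ratio of Bub1b to Bub1 ranged from 0.133 in XO1 to 3.57 in XO3, and that of Bub1b to Bub3 from 1.63 to 14.1 within XO oocytes. The mean log2 ratio of Bub1b to Bub3 was 1.44 ± 1.33 for XX, 2.78 ± 1.80 for XO and 1.63 ± 1.33 for XY libraries. As planned, XX oocytes were compared with XO and XY oocytes together over 84 splits, and no ratio passed the test (exact permutation tests, two-sided, p = 0.488 for Bub1b to Bub3, 0.417 for Mad2l1 to Bub1, 0.548 for Bub1b to Bub1 and 1.0 for Ttk to Bub1, adjusted p at least 0.730 over the 4 ratios).

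**Figure D4:**
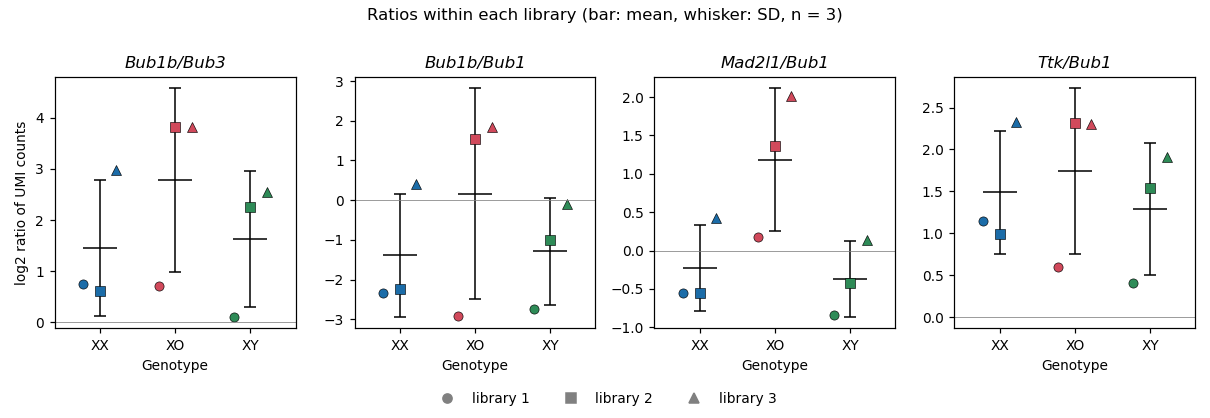
Log2 ratio of UMI counts of 2 genes in the same library (y axis, own scale in each panel) in XX, XO and XY oocytes, with 1 point per library, the mean as a bar and the SD as a whisker (n = 3). In each panel library 3 lies above library 1 of the same genotype, and for Mad2l1 to Bub1 all 3 XO points lie above all XY points.

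The authors also deposited log2 values from which batch effects had been regressed. In that matrix the difference of XX and XO was -0.83 for Mad2l1 and -0.95 for Cdc20, beside fitted log2 fold changes of -1.91 and -3.25. For Bub1b it was 0.012 and for Fbxo43 -0.024, so that the differences of these genes were nearly absent. Ttk and Bub3 changed sign, with 0.42 and 0.26. The difference of XY and XO was -0.64 for Mad2l1 and 0.47 for Bub1b. These values were taken as descriptions without a test, since the regression removes degrees of freedom that cannot be counted from the matrix.

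Other genes of the pathway were taken from 5 lists with 46 genes, of which 40 were tested. For XX against XO, 10 of 40 were called, beside 18.1% of all tested genes, all lower in XX, with a median log2 fold change of -0.66 beside -0.46 for all tested genes. With TMM factors 5 of 40 were called (12.2% of all tested genes), 4 lower and 1 higher in XX. For XY against XO, 10 of 40 were called (9.93%), 8 lower and 2 higher in XY, and 7 with TMM factors (9.01%). For XX against XY, 2 of 40 were called with either scaling (5.8% and 5.14%). Without XO1 the counts were 20 for XX against XO (36.4%), 18 for XY against XO (31.6%) and 3 for XX against XY (11.2%). Kntc1 and Trip13 lost their calls for XY against XO without XO1, and the other calls with spike-in factors given here for single pathway genes held.

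Among 13 tested subunits of the APC/C, 4 were lower in XX than in XO oocytes, namely Anapc5, Cdc26, Anapc1 and Cdc27, and 9 were not called. Anapc5 was at 4.27, 1.40 and 4.27 normalized CPM in the XX, 1.55, 35.7 and 59.3 in the XO and 2.32, 2.60 and 10.9 in the XY libraries, so that XO1 fell among the XX libraries as for Cdc20. Its log2 fold change was -3.25 ± 1.05 for XX against XO (adjusted p = 0.203, edgeR) and -2.56 ± 1.01 for XY against XO (adjusted p = 0.485, edgeR), and -3.81 ± 0.61 and -3.10 ± 0.59 without XO1. Anapc1, a scaffold subunit, differed between the same groups by -1.02 ± 0.35 and -0.89 ± 0.35. Cdc26 differed by -1.10 ± 0.49 between XX and XO, and Cdc27 by -0.64 ± 0.26 between XY and XO oocytes. With TMM factors, Anapc5 kept its calls in both comparisons and Anapc1 that of XY against XO, while those of Cdc26 and Cdc27 were lost. Anapc11, a low gene named after its values were seen, was higher in XY than in XO oocytes (log2 1.29 ± 0.45, adjusted p = 0.485, edgeR). Of the 2 tested E2 enzymes that serve the APC/C, Ube2s, also named after its values were seen, was lower than in XO in both XX (log2 -0.88 ± 0.36) and XY oocytes (log2 -0.97 ± 0.36), and neither call held with TMM factors.

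Of 7 tested outer kinetochore genes 1 was called, Ndc80, whose product holds the microtubule. It was at 29.9, 23.1 and 34.7 normalized CPM in the XX, 55.4, 93.6 and 107 in the XO and 34.4, 31.3 and 42.3 in the XY libraries. All XO libraries were above all XX and XY libraries, the same arrangement as for Mad2l1. Of all tested genes, 13.6% were lower in every XX and 6.34% lower in every XY library than in XO libraries. The log2 fold change was -1.54 ± 0.32 for XX against XO and -1.25 ± 0.32 for XY against XO (adjusted p = 0.203 and 0.485, edgeR), and -1.15 ± 0.26 and -1.04 ± 0.26 with TMM factors, all called. Without XO1 the values were -1.78 ± 0.27 and -1.48 ± 0.27.

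Of 7 tested checkpoint partners, 2 were lower in XX than in XO oocytes. Mad2l1bp, whose product p31comet removes MAD2L1 from CDC20 together with TRIP13, had 0.356, 0.700 and 4.87 normalized CPM in the XX, 0.518, 38.8 and 68.3 in the XO and 0.930, 2.93 and 6.34 in the XY libraries, so that XO1 overlapped the others. Its log2 fold change was -4.10 ± 1.31 for XX against XO and -3.32 ± 1.24 for XY against XO (adjusted p = 0.203 and 0.485, edgeR), and both calls held with TMM factors. Without XO1 the values were -4.66 ± 0.74 and -3.88 ± 0.70. Kntc1, a subunit of the RZZ complex that recruits MAD1L1 and MAD2L1, differed by -0.87 ± 0.29 and -0.68 ± 0.29, and both calls were lost with TMM factors. Trip13 was the gene of the lists that differed between XX and XY oocytes in the partner group. It was at 8.19, 7.70 and 8.84 normalized CPM in the XX, 9.84, 10.9 and 9.60 in the XO and 16.7, 20.5 and 13.6 in the XY libraries. Every XY library was above every XX and every XO library, and XX and XO libraries lay close together. Of all tested genes, 11.7% were lower in every XX than in every XY library, and 3.88% were higher in every XY than in every XO library. The log2 fold change was -1.03 ± 0.29 for XX against XY and 0.74 ± 0.29 for XY against XO (adjusted p = 0.473 and 0.485, edgeR), and -0.88 ± 0.31 and 0.94 ± 0.32 with TMM factors, all called.

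Of 11 tested targets of the APC/C and genes that act on them, Aurka and Btrc were lower in XX than in XO oocytes. Aurka, a spindle kinase that the APC/C with FZR1 destroys, was at 17.1, 18.9 and 34.4 normalized CPM in the XX, 14.5, 158 and 347 in the XO and 17.7, 25.1 and 45.9 in the XY libraries. Its log2 fold change was -2.88 ± 0.89 for XX against XO and -2.54 ± 0.88 for XY against XO (adjusted p = 0.203 and 0.485, edgeR), and both calls held with TMM factors. Leaving out XO1 gave -3.42 ± 0.47 and -3.08 ± 0.47. Btrc, an F-box protein that marks FBXO5 for destruction, differed by -1.72 ± 0.73 between XX and XO, a call lost with TMM factors. Ccnb3, a low gene named after its values were seen, was higher in XX than in XY oocytes (log2 1.23 ± 0.53, adjusted p = 0.824, edgeR), and with TMM factors also higher in XX than in XO oocytes (log2 1.40 ± 0.58). Its chromosome is not given here, and a part of X chromosome dosage in this difference was not tested. The transcripts of securin (Pttg1) and cyclin B (Ccnb1) were not called in any comparison. Pttg1 ranged from 3845 to 4246 in XX, from 695 to 4403 in XO and from 2195 to 4276 normalized CPM in XY libraries, and its lowest value was in XO1.

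**Figure D5:**
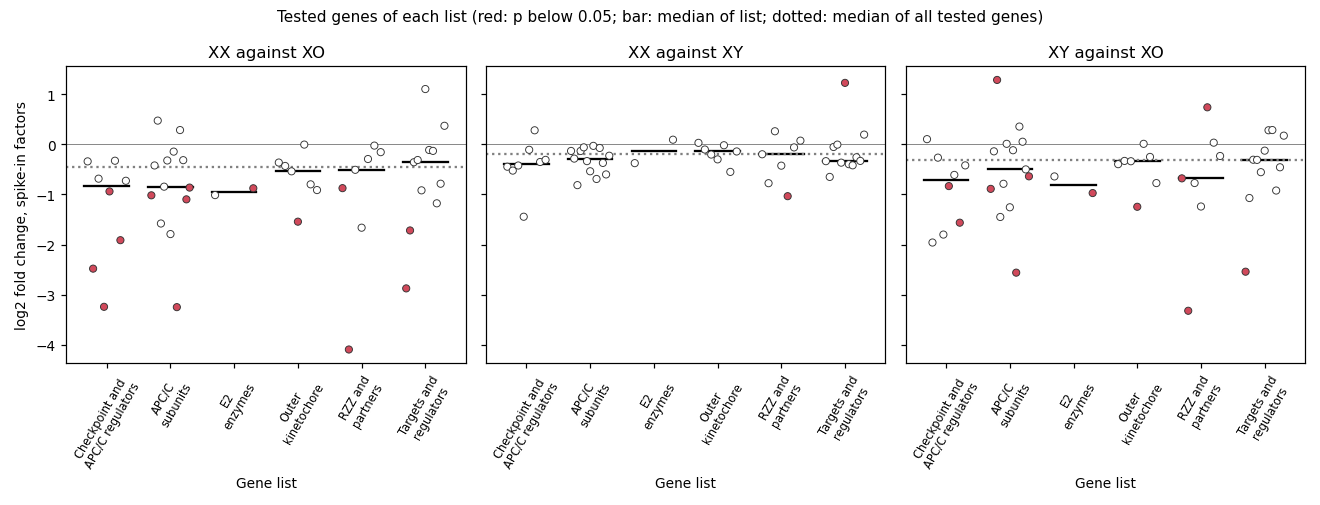
Log2 fold change with spike-in factors (y axis) of the tested genes of the group and of the 5 pathway lists for the 3 comparisons, with 1 point per gene, red where p was below 0.05, the list's median as a bar and the median of all tested genes as a dotted line. Red points lie mostly below the dotted line in the comparisons with XO oocytes, and XX against XY has 2.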

How the data were processed

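UMI counts per gene were deposited for 28052 genes and 79 ERCC spike-ins, made by the authors from 5′ reads after strand-specific HISAT2 alignment (GRCm38). A signal they call normalized CPM was deposited too, and each of its columns was checked to be the count column times 1 constant. The authors also regressed batch effects out of log2 values, which make up another deposited matrix. The 10 genes, the lists and the tests were chosen with earlier results of these data known.

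Counts were tested with edgeR 4.0.16 (filterByExpr, quasi-likelihood F test, 10993 genes, 1 mean per genotype), with library sizes of the deposited normalization. SE is the log2 fold change over the root of F. The tests were checked on simulated data. Alternatives were TMM factors on genes, spike-in totals, no filter, DESeq2 1.42.0, limma 3.58.1 voom with sva 3.50.0, a replicate block and leaving out each library. Adjusted p-values are Benjamini-Hochberg values over all tested genes. Exact permutation tests of ratios were run in Python 3.11.15.

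Named are all 10 genes and, per list and comparison, up to 3 called genes of largest fold whose mean reached 10 normalized CPM. Pairing was checked by correlating, over tested genes, deviations from genotype means of libraries with the same number. It was 0.826, 0.276 and 0.770 for XO with XY, taken as paired from these values alone. For XX it was 0.461, -0.439 and 0.673 with XO and 0.428, -0.059 and 0.720 with XY. XO2 with XY3, of unlike number, reached 0.715, above the 0.276 of XO2 with XY2. The replicate block used the number for all 9 libraries, XX included. The XO column without a number was taken as XO1 from its label.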

Additional observations from a re-analysis of the deposited data

How the results depend on the processing

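The direction and the call of Mad2l1 held in both comparisons with XO under every alternative except library sizes proportional to spike-in totals, where no gene of the group was called by edgeR (log2 fold change -1.01 and -1.33, adjusted p = 0.918 and 1.0). Fzr1, Mad1l1 and Cdc20 had 30, 38 and 107 UMIs over the 9 libraries and 0 in at least 1 library, so that 5 of the 6 planned ratios could not be formed. Causes of the changes listed here were not tested.

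Counts moved by more than 1.5 times as follows, given as calls of the group, of the pathway lists and of all tested genes. TMM factors gave 2 and 5 for XX against XO in the group and the lists, and 1 in the group for XY against XO. Spike-in totals gave 0, 1 and 343 for XX against XO, 1 in the lists and 284 in all for XX against XY, and 0, 0 and 136 for XY against XO. Without the filter they were 3953 in all for XX against XO, 1 in the group and 1214 in all for XX against XY, and 4 in the group and 2735 in all for XY against XO. DESeq2 gave 6 in the lists for XX against XO and 1 in the group for XY against XO. Limma with sva gave 18 in the lists and 4222 in all for XX against XO, 3 in the group, 7 in the lists and 2580 in all for XX against XY, and 4 in the group, 17 in the lists and 3086 in all for XY against XO. The counts with spike-in factors over all genes were 1986, 638 and 1092, of which 0, 9 and 4 had an adjusted p below 0.05.

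The replicate block gave 1 in the lists and 1007 in all genes for XX against XY, and 4 in the group and 1827 in all for XY against XO, where it added Cdc20 and Bub1b. It changed no other call in the group. Combined with TMM factors, an alternative chosen after seeing the data, the block gave 4 in the group and 1751 in all for XY against XO, and for XX against XO it called Mad2l1, Cdc20 and Bub1b. DESeq2 also called Bub1b for XX against XO. For the ratios the exact permutation p within the block was 0.407 or above.

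Leaving out 1 library gave 1 to 6 in the group, 7 to 20 in the lists and 905 to 4003 in all genes for XX against XO. For XX against XY it gave 1 to 3 in the lists and 371 to 1227 in all, and for XY against XO 1 to 4, 2 to 18 and 402 to 3474. In the comparisons with XO the highest of these counts came without XO1. It also spanned 0 for genes that were not called, with -0.56 to 0.21 for Fbxo5 in XX against XO, -3.06 to 0.13 for Cdc20, -0.23 to 0.16 for Fbxo43, -1.52 to 0.18 for Bub1b and -0.56 to 0.0084 for Ttk in XX against XY, and -0.041 to 0.20 for Bub1 and -0.57 to 0.048 for Bub3 in XY against XO. The difference in the log2 ratio of Ttk to Bub1 was -0.44 to 0.23.

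Signs turned elsewhere only where the main value was not called, apart from Bub1b in the batch-regressed values. For XX against XO, spike-in totals gave 0.58 for Fbxo5, 0.42 for Bub1, 0.040 for Bub3 and 0.21 for Ttk, TMM factors 0.0018 for Bub1, TMM with the replicate block 0.10 for Fbxo5, and the batch-regressed values 0.047 for Bub1, 0.012 for Bub1b, 0.26 for Bub3 and 0.42 for Ttk. For XX against XY, Fbxo43 was 0.091 with TMM factors, 0.55 with spike-in totals, 0.10 with TMM and the block, 0.072 with DESeq2 and 0.062 in the batch-regressed values, and spike-in totals gave 0.17 for Bub1, 0.34 for Bub1b, 0.21 for Bub3, 0.32 for Mad2l1 and 0.39 for Ttk. For XY against XO, batch-regressed values were 0.47 for Bub1b, 0.49 for Bub3 and 0.55 for Ttk.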
